A study of Homo sapiens with 15 samples.

Results

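The 44 genes examined here act in mitosis and chromosome segregation, and they were selected by gene symbol from the 57820 gene IDs in the RNA-seq tables of a study of RNF5, a ubiquitin ligase, in acute myeloid leukemia (AML). All 44 were above 0 in each line, against 13026, 13165 and 12570 of all gene IDs in MOLM-13, U937 and HL-60. The 15 libraries came from these 3 human AML lines, each transduced with the empty lentiviral vector pLKO or with shRNF5, a short hairpin RNA against RNF5. There were 3 pLKO and 2 shRNF5 libraries of MOLM-13, 2 and 2 of U937, and 3 and 3 of HL-60, and no group carried a further treatment. RNA was collected 7 days after transduction by the sample labels and 5 days by the series design, and the labels and the methods name different library kits, a kit that reads transcript 3′ ends and a poly(A) kit. Which hairpin was sequenced is not given in the sources used here. The labels call the libraries of a group replicates without naming separate cultures, so the p-values measure the spread between these libraries, which may be technical.

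Cells entering mitosis condense their chromosomes with condensin, build a spindle of microtubules with kinesin motors and attach each chromosome to it through a kinetochore at the centromere. The spindle assembly checkpoint holds the anaphase-promoting complex inactive until all kinetochores are attached. The complex then has securin degraded, which frees separase to cut the cohesin that holds sister chromatids together, and a central spindle guides cytokinesis. Most of these genes are transcribed in G2 and M phase under B-MYB and FOXM1 through a cell cycle genes homology region (CHR) and CCAAT boxes near the transcription start. Their RNA in a culture is therefore known to move with the share of cycling cells, and in bulk RNA a change in the number of such cells and a change in RNA per cell cannot be told apart.

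Promoters of 37 of the 44 genes were found among the RefSeq promoter windows, which run from 250 bases before to 50 bases after the start (GRCh38.p14). The CHR, searched as TTTGAA or TTCGAA on both strands, was in 28 of the 37 (75.7%), against 16.4% of all 35116 windows of that length. A CHR within 50 bases of the start was in 24 (64.9%), against 5.01% of all windows. CCAAT on either strand was in 26 (70.3%), against 34.6%, and both elements were in 21 (56.8%), against 6.38%. The E2F strings TTTCCCGC or TTTGGCGC were in 2 windows (5.41%), against 2.27%. The windows of 4 genes that rose in U937 are printed to show where these elements lie, MKI67 (chr10:128126374-128126673, minus strand), NUSAP1 (chr15:41332631-41332930, plus strand), SPC25 (chr2:168890381-168890680, minus strand) and KIF11 (chr10:92592880-92593179, plus strand), and capitals mark CHR and CCAAT matches in either orientation, which overlap at 1 place in MKI67.
MKI67: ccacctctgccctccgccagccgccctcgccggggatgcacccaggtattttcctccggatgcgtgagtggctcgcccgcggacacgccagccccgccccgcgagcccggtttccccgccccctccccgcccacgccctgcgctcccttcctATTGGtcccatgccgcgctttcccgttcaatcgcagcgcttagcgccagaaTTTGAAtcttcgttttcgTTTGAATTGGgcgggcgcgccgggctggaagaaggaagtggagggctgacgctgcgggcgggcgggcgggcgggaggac
NUSAP1: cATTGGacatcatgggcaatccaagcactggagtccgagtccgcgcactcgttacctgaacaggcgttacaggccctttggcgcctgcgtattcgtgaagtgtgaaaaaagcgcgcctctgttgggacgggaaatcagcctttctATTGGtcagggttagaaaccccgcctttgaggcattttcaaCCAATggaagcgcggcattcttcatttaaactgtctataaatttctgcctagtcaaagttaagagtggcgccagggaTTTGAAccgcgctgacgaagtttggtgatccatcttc
SPC25: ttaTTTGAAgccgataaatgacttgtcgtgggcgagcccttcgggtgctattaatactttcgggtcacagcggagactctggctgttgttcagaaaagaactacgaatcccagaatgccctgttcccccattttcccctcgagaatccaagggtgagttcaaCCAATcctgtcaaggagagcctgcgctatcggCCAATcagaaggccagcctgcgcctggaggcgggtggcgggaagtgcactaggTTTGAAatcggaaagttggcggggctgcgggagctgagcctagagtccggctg
KIF11: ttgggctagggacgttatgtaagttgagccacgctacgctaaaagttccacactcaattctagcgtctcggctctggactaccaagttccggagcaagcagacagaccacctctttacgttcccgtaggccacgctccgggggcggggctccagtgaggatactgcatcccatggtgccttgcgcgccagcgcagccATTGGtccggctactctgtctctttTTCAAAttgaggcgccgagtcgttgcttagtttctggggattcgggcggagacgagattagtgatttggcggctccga

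A match of these letters is a description of the window, and binding was not measured. Of the 9 windows of genes that rose in U937, 7 held a CHR, 7 a CCAAT and 6 both. Of the other 28 windows, 21 held a CHR, 19 a CCAAT and 15 both.

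RNF5 itself was lower in every shRNF5 library than in every pLKO library of its line. In MOLM-13 its normalized read counts were 1223, 1017 and 1020 with pLKO and 76 and 81 with shRNF5, in U937 648 and 843 against 46 and 74, and in HL-60 506, 689 and 545 against 37, 133 and 43. The log2 fold changes were −3.77, −3.64 and −3.25 in the 3 lines. CDKN1A, which encodes the cell cycle inhibitor p21, rose in each line, with log2 fold changes of 1.30, 2.54 and 1.82 (limma, adjusted p = 0.0682, 0.0117 and 0.0115), at only 7 to 41 normalized reads in HL-60. Estimated depths ran from 9700000 to 63800000 reads, and the 2 MOLM-13 shRNF5 libraries, with 24400000 and 63800000 reads, were deeper than the 3 pLKO libraries with 9700000 to 15300000 reads, and the part of depth in the MOLM-13 values was not tested. All 6 myeloid markers were above 0 in all libraries. In HL-60 LYZ, MPO and PTPRC rose, by 1.25, 0.60 and 0.42 on the log2 scale (limma, adjusted p = 0.0777, 0.078 and 0.0431). CD33 fell by 0.45 (limma, adjusted p = 0.0241). The LYZ groups overlapped, at 1201, 377 and 270 with pLKO and 1698, 787 and 1236 with shRNF5. The shares of the 6 that rose and fell were 50% and 16.7%, against 13.6% and 12.3% of all genes. In MOLM-13 and U937 0 of the 6 were called by limma. The part of these marker changes in the members' values was not tested. Of the 9 markers of other cell types that were matched, 7 were listed at 0 in all libraries, and COL1A1, a fibroblast collagen, was at 234 and 39 with pLKO and at 15 and 29 with shRNF5 in U937 (−2.15, adjusted p = 0.108) and listed at 0 in the other lines.

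The question asked of the mitosis genes was whether their RNA changed on RNF5 knockdown and whether the lines differed in this. The genes were higher with shRNF5 than with pLKO in U937 for 39 of 44, lower in MOLM-13 for 39 of 44, and on both sides of 0 in HL-60. In U937 10 of 44 (22.7%) rose and 0 fell, against 6.92% of all genes tested that rose and 8.74% that fell. In HL-60 6 of 44 (13.6%) rose and 0 fell, against 13.6% and 12.3% of all genes, so the share that rose was that of the background. In MOLM-13 0 of 44 passed the test in limma, against 1.03% of all genes that rose and 1.01% that fell. With a block for replicate number, by title or by file name, limma called 3 and 23 members there, all lower. Those fits called 738 and 2495 of all 13026 genes, and whether the numbers mark pairs is not known. Genes were called at a Benjamini-Hochberg adjusted p below 0.1, over all genes tested, with a log2 fold change beyond 0.4 in size. At an unadjusted p below 0.05 there were 8 members in MOLM-13, all lower, 22 in U937, of which 21 were higher, and 11 in HL-60, of which 9 were higher, or 18.2%, 50% and 25% of the members against 17%, 27.1% and 35.0% of all genes. The members had a median log2 fold change of −0.25 for MOLM-13, 0.56 for U937 and 0.15 for HL-60, and that of all genes was 0.0073, 0.0042 and 0.0020.

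**Figure D1:**
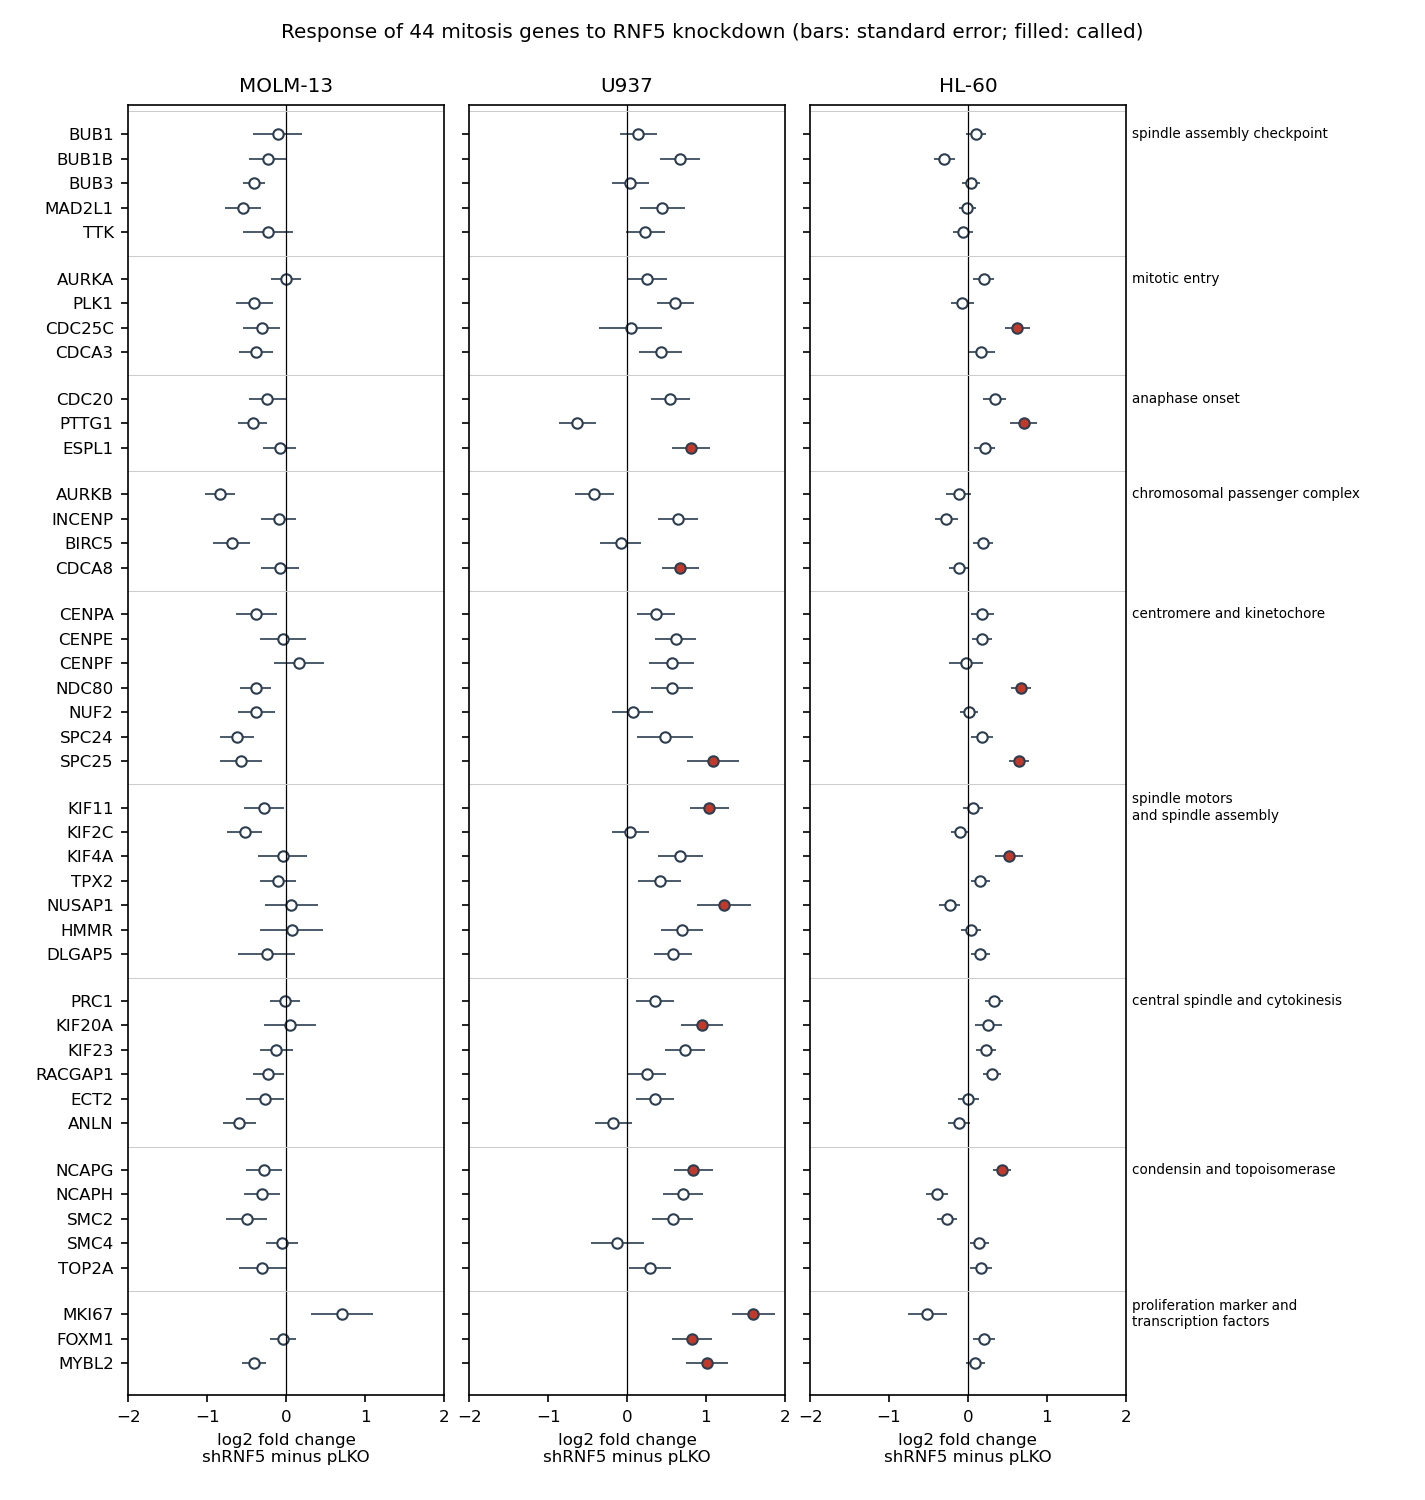
Log2 fold changes (shRNF5 minus pLKO, x axis, on the log2(normalized read count + 1) scale) of the 44 genes, in rows by role, in MOLM-13, U937 and HL-60. Points are limma estimates, bars are standard errors and filled points passed the test, 10 in U937, 6 in HL-60 and 0 in MOLM-13.

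In U937 the cell cycle transcription factors and the proliferation marker were among the genes that rose. MKI67, the Ki-67 protein that coats mitotic chromosomes, had 4917 and 7226 normalized reads with pLKO and 18595 and 17579 with shRNF5, a log2 fold change of 1.60 ± 0.27 (SE, adjusted p = 0.0179, limma), the largest of the members in this line. MYBL2, which encodes B-MYB, had 2170 and 2978 against 5982 and 4386 (1.01 ± 0.27, adjusted p = 0.0507). FOXM1, a transcription factor of G2 and M phase genes, had 1415 and 1902 against 2685 and 3154 (0.83 ± 0.25, adjusted p = 0.0736). All 3 genes of this role rose, and both shRNF5 libraries lay above both pLKO libraries for each.

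Of the 7 spindle motors and spindle assembly factors, 2 rose in U937 and all 7 were higher. NUSAP1, a microtubule-bundling protein, had 1965 and 4050 with pLKO and 5619 and 7792 with shRNF5 (log2 fold change 1.23 ± 0.34, adjusted p = 0.0553). KIF11, the kinesin that pushes spindle poles apart, had 2178 and 2589 against 5363 and 4474 (1.04 ± 0.24, adjusted p = 0.0359). The other 5 ranged from 0.04 for KIF2C, a microtubule-depolymerizing kinesin, to 0.70 for HMMR. Of the 6 genes of the central spindle and cytokinesis 1 rose, KIF20A, a central spindle kinesin, with 833 and 1234 against 1847 and 2077 (0.95 ± 0.27, adjusted p = 0.0593). ANLN, which encodes the contractile ring protein anillin, was at −0.17 and the only one of the 6 below 0.

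Of the 7 centromere and kinetochore genes all were higher in U937 and 1 rose. SPC25, a subunit of the NDC80 complex that holds microtubules at the kinetochore, had 434 and 836 with pLKO and 1439 and 1145 with shRNF5 (1.09 ± 0.33, adjusted p = 0.0712). The other subunits had log2 fold changes of 0.57 for NDC80, 0.48 for SPC24 and 0.07 for NUF2. In the condensin and topoisomerase group NCAPG, a condensin I subunit, rose from 2068 and 2568 to 4626 and 3685 (0.84 ± 0.25, adjusted p = 0.0675). Its condensin I partner NCAPH was at 0.71 (adjusted p = 0.102), just short of the threshold, and the core subunit SMC4 at −0.12, with 20499 and 38180 against 23017 and 28724.

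Separase and borealin were the remaining genes that rose in U937. ESPL1, separase, had 1253 and 1494 with pLKO and 2584 and 2235 with shRNF5 (0.81 ± 0.24, adjusted p = 0.069). PTTG1, which encodes securin, the inhibitor of separase, had 2160 and 2458 against 1541 and 1441 (−0.63 ± 0.24, adjusted p = 0.121), so that its groups were separated in the other direction without passing the test. CDCA8, borealin of the chromosomal passenger complex, had 1542 and 1774 against 2688 and 2605 (0.68 ± 0.24, adjusted p = 0.0985). In the same complex the kinase AURKB had 1331 and 1565 against 1004 and 1171 (−0.41, adjusted p = 0.309), the scaffold INCENP was at 0.65 and survivin, BIRC5, at −0.08. None of the 5 checkpoint genes, from BUB3 at 0.04 to BUB1B at 0.67, and none of the 4 mitotic entry genes, from CDC25C at 0.04 to the kinase PLK1 at 0.61, passed the test.

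Both shRNF5 libraries lay above both pLKO libraries for 33 of 44 members in U937 (75%, against 29.0% of all genes) and below them for 3 (6.82%, against 30.2%), PTTG1, AURKB and ANLN. How far the number called rests on single libraries could not be judged, since leaving out any 1 library left a single library in its group. Only effect sizes are given for these fits. Without pLKO replicate 2 the log2 fold change was above 0 for 35 of 44 members and without pLKO replicate 3 for 41. Without either shRNF5 library it was above 0 for 38. NUSAP1 was at 0.71 and SPC25 at 0.62 without pLKO replicate 2. The median log2 fold change over the members stayed between 0.39 and 0.64.

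In HL-60 2 of the 7 centromere and kinetochore genes rose, both of the NDC80 complex. NDC80 had 1583, 1642 and 1362 normalized reads with pLKO and 2242, 2464 and 2606 with shRNF5 (log2 fold change 0.67 ± 0.12, adjusted p = 0.00589). SPC25 had 523, 521 and 503 against 821, 727 and 888 (0.65 ± 0.13, adjusted p = 0.00775). The other subunits were at 0.18 for SPC24 and 0.02 for NUF2, with 1031, 1117 and 1013 against 1065, 1060 and 1068 for NUF2, whose groups overlapped. Of the 3 anaphase onset genes PTTG1 rose, from 1937, 2297 and 1641 to 2690, 2890 and 4066 (0.70 ± 0.18, adjusted p = 0.0201), while separase was at 0.21 and CDC20, the activator of the anaphase-promoting complex, at 0.34 (adjusted p = 0.127). Near-identical copies of PTTG1 exist in the genome, so its reads may have been split and its values are uncertain.

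CDC25C, the phosphatase that activates CDK1 at mitotic entry, rose in HL-60 from 280, 290 and 221 to 374, 418 and 424 (0.63 ± 0.16, adjusted p = 0.0208). NCAPG rose from 2704, 2409 and 2476 to 3650, 3428 and 3145 (0.43 ± 0.12, adjusted p = 0.0271). NCAPH and SMC2, other condensin subunits, lay lower in every shRNF5 library, at −0.39 (adjusted p = 0.0743) and −0.27 (adjusted p = 0.147), and neither passed the call, NCAPH because of its size. KIF4A, a chromosome-bound kinesin, had 1546, 1090 and 1366 against 2183, 1478 and 2091 (0.52 ± 0.18, adjusted p = 0.0624), and it was the only one of the 6 genes that rose whose groups overlapped. PRC1 and RACGAP1 of the central spindle, at 0.33 and 0.30, had adjusted p of 0.0661 and 0.0927 but were below the size required.

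The proliferation marker and the transcription factors did not pass the test in HL-60. MKI67 had 15404, 9000 and 9800 with pLKO and 9672, 8994 and 5346 with shRNF5 (−0.52 ± 0.25, adjusted p = 0.164), the lowest log2 fold change of the members in this line. It passed the test as lower without pLKO replicate 2 (−0.67, adjusted p = 0.0994) and without shRNF5 replicate 1 (−0.68, adjusted p = 0.0936), and was at −0.28 without pLKO replicate 1 and −0.25 without shRNF5 replicate 3, with adjusted p from 0.0936 to 0.504 over the 6 fits. MYBL2 had 4191, 5046 and 4097 against 4891, 4439 and 4872 (0.10 ± 0.12), and FOXM1 had 1635, 1842 and 1328 against 1780, 1996 and 1727 (0.21 ± 0.14), both with overlapping groups. The 4 passenger complex genes ranged from −0.27 for INCENP to 0.19 for BIRC5 and the 5 checkpoint genes from −0.30 for BUB1B to 0.10 for BUB1. All shRNF5 libraries lay above all pLKO libraries for 9 of 44 members (20.5%, against 19.9% of all genes) and below them for 3 (6.82%, against 18.6%). Leaving out 1 library gave 4 to 7 members called, against 1970 to 3413 of all 12570 genes. NDC80, SPC25, CDC25C and PTTG1 were called in each of these 6 fits, KIF4A was lost in 4 and NCAPG in 3. Other members were gained, MKI67, lower, and CDC20, higher, without pLKO replicate 2, MKI67 and NCAPH, both lower, without shRNF5 replicate 1, and NCAPH, lower, without shRNF5 replicate 2, so 1 or 2 members fell in 3 of the 6 fits.

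**Figure D2:**
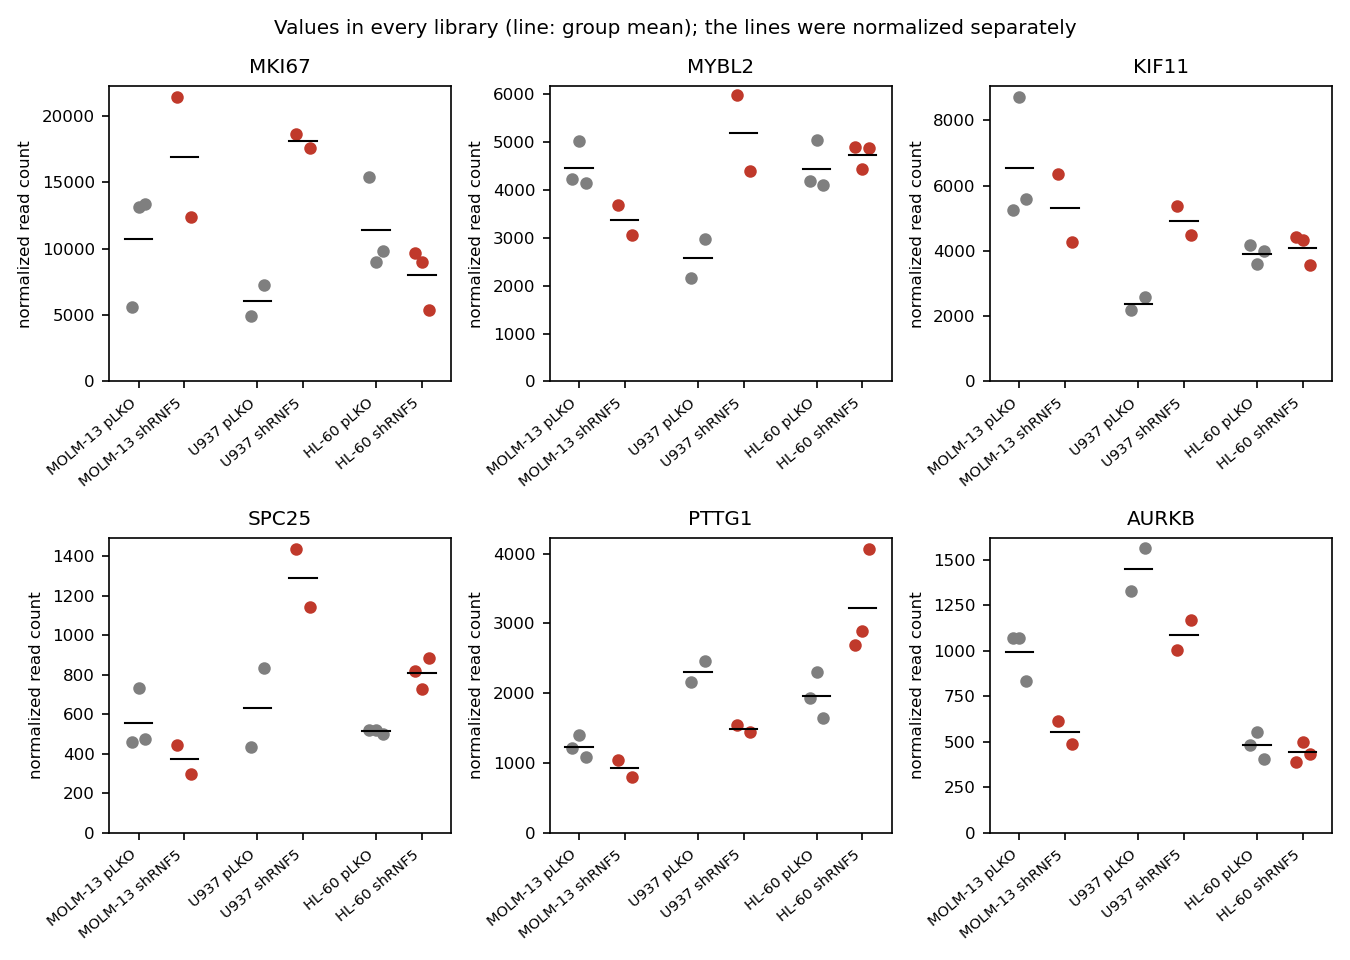
Normalized read counts (y axis, linear from 0) of MKI67, MYBL2, KIF11, SPC25, PTTG1 and AURKB in every library, gray for pLKO and red for shRNF5, with the group mean as a line. MKI67, MYBL2, KIF11 and SPC25 were higher in both U937 shRNF5 libraries, PTTG1 was higher with shRNF5 in HL-60 and lower in the other lines, and levels are not comparable between lines, which were normalized separately.

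In MOLM-13 the members with the lowest log2 fold changes belonged to the chromosomal passenger complex. AURKB had 1073, 1071 and 835 normalized reads with pLKO and 617 and 491 with shRNF5 (−0.84 ± 0.19, adjusted p = 0.1002), just outside the threshold, and it passed in the fit over all libraries together (adjusted p = 0.0439). BIRC5 had 2259, 2971 and 1832 against 1679 and 1216 (−0.69 ± 0.23, adjusted p = 0.207). INCENP and CDCA8, of the same complex, were at −0.10 and −0.08 with overlapping groups. Of the NDC80 complex, SPC24 had 954, 949 and 643 against 589 and 496 (−0.63 ± 0.22, adjusted p = 0.218) and SPC25 had 462, 734 and 474 against 446 and 300 (−0.57 ± 0.27, adjusted p = 0.321).

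The other roles had their lowest values in MOLM-13 at MAD2L1 of the checkpoint (−0.55), PLK1 of mitotic entry (−0.40), PTTG1 (−0.42), KIF2C (−0.52), ANLN (−0.59) and SMC2 (−0.50). MYBL2 had 4219, 5028 and 4142 with pLKO and 3691 and 3061 with shRNF5 (−0.40 ± 0.15, adjusted p = 0.249), and its groups did not overlap. FOXM1 had 1565, 1888 and 1793 against 1895 and 1512 (−0.04 ± 0.16), with overlapping groups. The 5 members above 0 were MKI67, CENPF, HMMR, NUSAP1 and KIF20A. MKI67, the highest at 0.71 ± 0.39 (adjusted p = 0.384), had 5595, 13150 and 13370 against 21408 and 12363. Leaving out 1 library moved it from 0.30, without pLKO replicate 1, and 0.31, without shRNF5 replicate 1, to 1.11, without shRNF5 replicate 2. Without pLKO replicate 1 or without shRNF5 replicate 1, 1 of the 44 members was above 0. Both shRNF5 libraries lay below all pLKO libraries for 11 members (25%, against 19.2% of all genes), BUB3, MAD2L1, CDC25C, PTTG1, AURKB, BIRC5, SPC24, SPC25, KIF2C, ANLN and MYBL2, and above them for 0 (against 19.6%).

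The MOLM-13 libraries of 1 group differed among themselves in these genes. As the median over members of the log2 difference from the pLKO mean of the line, pLKO replicates 1, 2 and 3 were at −0.34, 0.36 and −0.03 and the shRNF5 replicates at −0.02 and −0.47, so the groups overlapped. pLKO replicate 2 was the highest of the pLKO libraries for 40 of 44 members and replicate 1 the lowest for 36. The range over the pLKO libraries had a median of 0.701 on the log2 scale for members, against 0.44 for all genes with a mean value of at least 50, and in HL-60 it was 0.283 against 0.31. Without pLKO replicate 2 the median log2 fold change was −0.05 and without shRNF5 replicate 2 it was −0.02, each with 19 of 44 members higher. Without shRNF5 replicate 1 it was −0.47. Without pLKO replicate 1 it was −0.41, and limma called 2 of 44 members, ANLN and AURKB, and 872 of all 13026 genes. Without pLKO replicate 2 or 3 limma called 0 members, with 1 and 7 at an unadjusted p below 0.05. Those 2 fits called only 1 and 41 of all 13026 genes. Without either shRNF5 library 1 is left in its group, so calls of those fits are not given. In U937 the pLKO libraries were at −0.14 and 0.14 and the shRNF5 libraries at 0.61 and 0.43, and in HL-60 pLKO was at 0.09, 0.02 and −0.13 and shRNF5 at 0.16, 0.12 and 0.06.

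**Figure D3:**
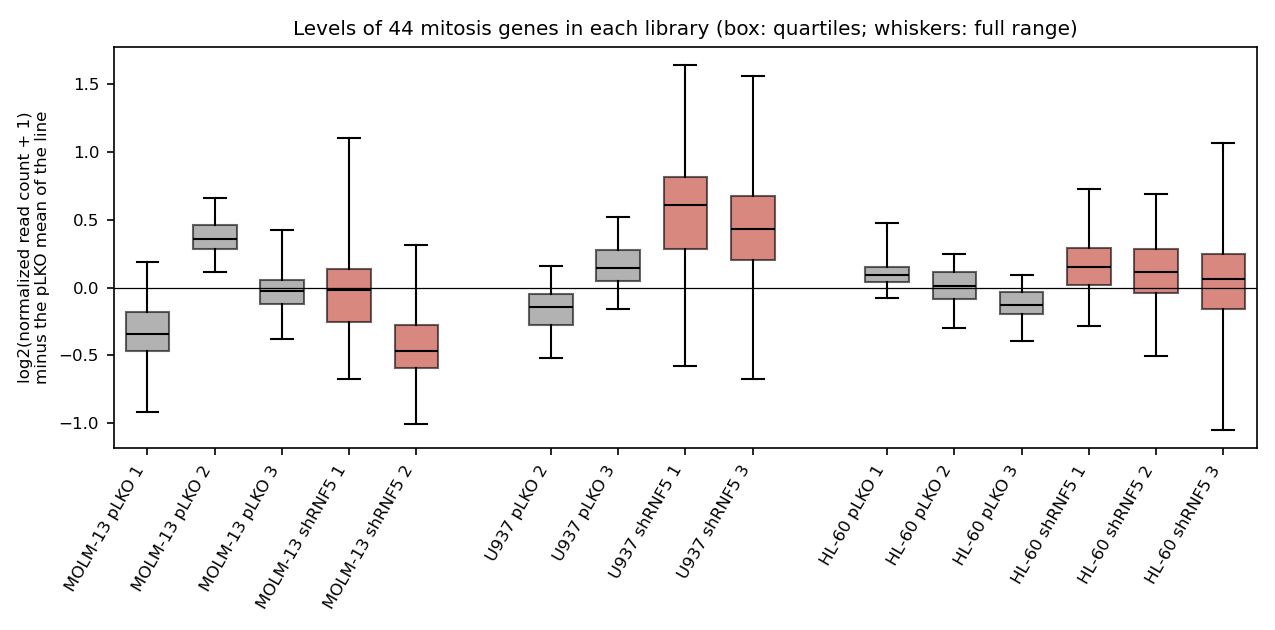
Levels of the 44 genes in each of the 15 libraries, as the log2 value minus the mean of the line's pLKO libraries (y axis). Boxes are quartiles with the median, whiskers span all 44 genes, and the medians of the groups overlap in MOLM-13 (pLKO −0.34 to 0.36, shRNF5 −0.47 and −0.02) and do not in U937 (pLKO −0.14 and 0.14, shRNF5 0.61 and 0.43).

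Across the 3 lines 14 members (31.8%) were called in at least 1, 30 in none and 0 in all, against 36.5% of the 11072 genes tested in each line that were called in at least 1 and 0.325% in all. SPC25 and NCAPG were the 2 called in both U937 and HL-60, which is 2 of 10 in U937 and 2 of 6 in HL-60. They are 4.55% of the members, against 4.63% of all genes called in both lines and 1.04% called higher in both. The sign was the same in all lines for 4 members (9.09%, against 25.3% of all genes), lower for AURKB and ANLN and higher for HMMR and KIF20A. For 34 members the log2 fold change was below 0 in MOLM-13 and above 0 in U937 (77.3%, against 23.3% of all genes). On leaving out 1 library the sign changed for 20 of 44 members in MOLM-13, for 10 in HL-60 and for 7 in U937. The shares of all genes are not given here.

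The difference between the responses of the lines was tested in limma in 1 fit over the 15 libraries, with 11072 genes above 0 in all lines, and the 3 pairs of lines share libraries. The response in MOLM-13 was lower than in U937 for 14 of 44 members and higher for 0, against 939 and 769 of all 11072 genes (8.48% and 6.95%). The median difference was −0.75 over members and −0.06 over all genes. The 14 were SPC25, SPC24 and NDC80 of the kinetochore, KIF11 of the spindle, KIF23, a central spindle kinesin, NCAPG, NCAPH and SMC2 of condensin, ESPL1, PLK1, the checkpoint genes BUB1B and MAD2L1, and MYBL2 and FOXM1. The largest differences were those of SPC25 at −1.66 ± 0.39 (adjusted p = 0.024), MYBL2 at −1.41 ± 0.26 (adjusted p = 0.0102) and KIF11 at −1.33 ± 0.32 (adjusted p = 0.0253). This count moved with single libraries. It was 27 without pLKO replicate 1 of MOLM-13 and 4 without pLKO replicate 2 of MOLM-13, and counts of all genes in these fits are not given here. Over the 15 fits with 1 library left out, the median difference over members ranged from −0.99 to −0.49. That of MYBL2 ranged from −1.64 to −1.19.

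U937 and HL-60 differed at 12 of 44 members. The response was higher in U937 for 11 and lower for 1, against 2113 and 2009 of all 11072 genes (19.1% and 18.1%). MKI67 differed most, by 2.12 ± 0.52 (adjusted p = 0.00819), then NUSAP1 by 1.46 ± 0.45 (adjusted p = 0.025). PTTG1 was the gene with the lower response in U937, by −1.33 ± 0.28 (adjusted p = 0.00374). NCAPH differed by 1.10 ± 0.30 (adjusted p = 0.0136) and KIF11 by 0.98 ± 0.30 (adjusted p = 0.0249), and the others were MYBL2, FOXM1, CDCA8, SMC2, INCENP, BUB1B and PLK1. Leaving out each of the 15 libraries in turn, the median difference over members ranged from 0.18 to 0.49. That of MKI67 ranged from 1.84 to 2.39, that of PTTG1 from −1.455 to −1.15 and that of NCAPH from 0.90 to 1.30.

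MOLM-13 and HL-60 differed at 4 of 44 members, all lower in MOLM-13, against 564 lower (5.09%) and 412 higher (3.72%) of all 11072 genes. These were SPC25 (−1.22 ± 0.35, adjusted p = 0.0652), PTTG1 (−1.13 ± 0.26, adjusted p = 0.0341), NDC80 (−1.06 ± 0.26, adjusted p = 0.0383) and BIRC5 (−0.88 ± 0.27, adjusted p = 0.0766). The count was 1 without shRNF5 replicate 3 of HL-60 and 2 without pLKO replicate 2 of MOLM-13 or pLKO replicate 1 or 3 of HL-60. Counts of all genes in these fits are not given here. Over the 15 fits with 1 library left out, the median difference over members ranged from −0.56 to −0.14.

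**Figure D4:**
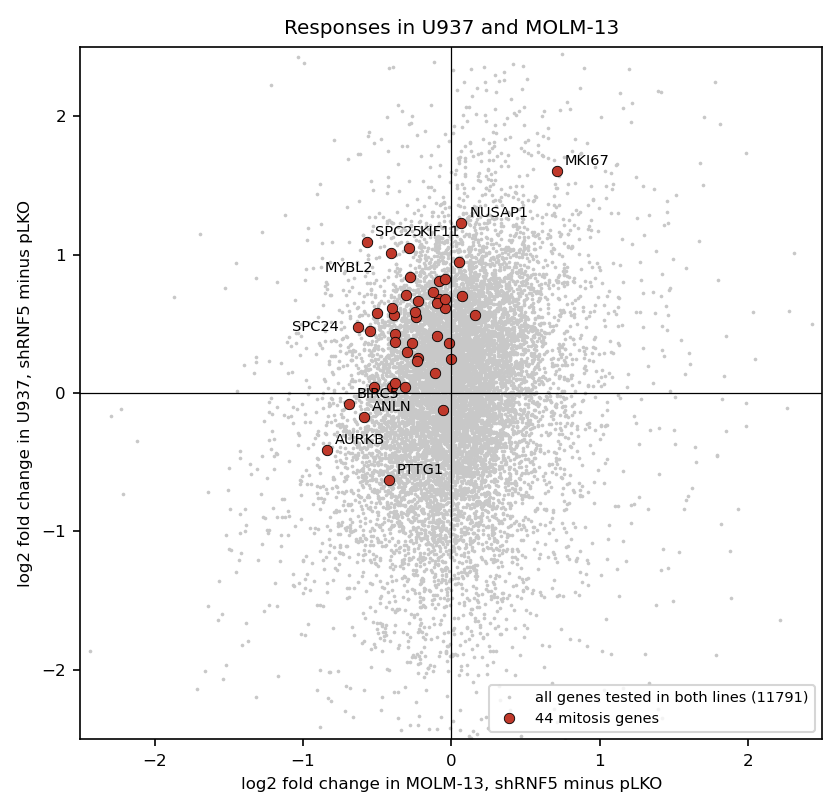
Log2 fold changes (shRNF5 minus pLKO) in MOLM-13 (x axis) and U937 (y axis) of the 44 genes, in red, over the 11791 genes tested in both lines, in gray, of which 90 lie outside the axes. Of the 44, 34 lie to the left of 0 in MOLM-13 and above 0 in U937, and MKI67 lies highest in both lines.

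Genes of related lists, not among the 44, were counted the same way. Of 38 DNA replication genes 5 rose in U937, 3 rose and 1 fell in HL-60 and 0 were called in MOLM-13 by limma, with medians of 0.64, −0.07 and −0.33. RRM2, a ribonucleotide reductase subunit, had 2730 and 5297 against 20003 and 15298 in U937 (2.20 ± 0.33, adjusted p = 0.0144) and rose by 0.62 in HL-60 (adjusted p = 0.0124). These shares, 13.2% in U937 and 7.89% in HL-60 that rose, stand against 6.92% and 13.6% of all genes, so the share in HL-60 was below the background. The share that fell in HL-60 was 2.63%, against 12.3% of all genes. POLA1 and CDC6, of replication initiation, rose by 1.34 and 1.32 in U937. TK1 and RPA3 rose by 0.84 and 0.74 in HL-60.

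Of 34 other centromere and kinetochore genes 8 rose and 2 fell in U937, 4 rose and 2 fell in HL-60 and 1 fell in MOLM-13, with medians of 0.42, 0.15 and −0.20. The shares that rose were 23.5% in U937 and 11.8% in HL-60, against 6.92% and 13.6% of all genes. Those that fell were 5.88% in U937, 5.88% in HL-60 and 2.94% in MOLM-13, against 8.74%, 12.3% and 1.01%. CENPH, of the inner kinetochore, had 2179 and 2120 against 746 and 855 in U937 (−1.43 ± 0.24, adjusted p = 0.0179). SKA2, a subunit of the outer kinetochore SKA complex, rose by 1.20 in U937 and 0.91 in HL-60 (adjusted p = 0.0449 and 0.0015), and CENPN rose by 1.14 in U937. In HL-60 CENPP fell by 0.68 and CENPW rose by 0.63, on the log2 scale. MIS18A, which helps load CENP-A, had 1275, 1509 and 1163 against 750 and 756 in MOLM-13 (−0.80 ± 0.16, adjusted p = 0.0853).

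The remaining lists held few calls, with shares that rose of 3.57% to 7.14% in U937 and 7.14% to 14.3% in HL-60, near the 6.92% and 13.6% of all genes or below them. Of 28 other spindle and cytokinesis genes 1 rose in U937, KIFC1 by 0.79, and 4 in HL-60, among them DEPDC1B by 0.69, NEK2 by 0.55 and DEPDC1 by 0.43. Of 14 cohesin and other condensin genes STAG1 rose by 0.94 in U937, and in HL-60 NCAPH2 rose by 0.44 and SMC1A fell by 0.41. Of 17 genes of the anaphase-promoting complex and its partners FBXO5, an inhibitor of the complex, rose by 1.02 in U937, and in HL-60 ANAPC11 and ANAPC13 rose by 0.83 and 0.45 while ANAPC1 fell by 0.56. The shares that fell in HL-60 were 7.14% in the cohesin list and 5.88% in the anaphase-promoting complex list, against 12.3% of all genes. In MOLM-13 0 genes of these 3 lists were called. The medians, in the order MOLM-13, U937, HL-60, were −0.18, 0.34 and 0.04 for the spindle list, 0.08, 0.45 and −0.01 for the cohesin list and −0.09, −0.02 and 0.15 for the anaphase-promoting complex list.

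Several members share sequence with neighbors on GRCh37. Exons of genes on the opposite strand cover 34.3% of the exon bases of PRC1, 33.7% of those of NCAPG, from LCORL, 22% of SMC4 and 15.9% of FOXM1. Whether the counting used strand is not given in the sources used here. Exons of other genes on the same strand overlap those of NUSAP1, BUB1B, CENPA and PRC1. The part of any of these overlaps in the values was not tested. Each library was also corrected for transcript length, an alternative chosen after the data were seen. MKI67, whose longest annotated transcript of 12716 bases is the longest of the members, then had log2 fold changes of 0.44, 1.49 and −0.27 in the 3 lines, MOLM-13 first and HL-60 last, in place of 0.71, 1.60 and −0.52.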

How the data were processed

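RNA-seq was performed on 15 libraries of 3 AML lines. Reads were trimmed, mapped to hg19 with STAR and counted per gene with featureCounts of Subread by the authors, who used SARTools with edgeR to normalize them. The deposited scores are thus read counts scaled within each line and rounded, and a gene below the authors' filter has 0 in every library of that line. Columns of the authors' own comparisons (fold changes and p-values) were not used. The scaling factor of each library, and from it the depth, was estimated from the spacing of low values (11 to 200). Raw reads could not be recovered for libraries that were scaled down, so no count test was run.

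Samples were grouped by the line and construct of the labels. Genes above 0 in any library of a line were tested with limma 3.58.1 in R 4.3.3 (empirical Bayes with a mean-variance trend, two-sided) on log2(value + 1), within each line, and fold changes on this scale understate the change of low genes. Responses were compared between lines in 1 fit over all libraries, called at an adjusted p below 0.1. The fits and the depth estimate were tested on simulated data. Members and lists were chosen with earlier results of these data known. Values in every library are given for up to 2 called members per role, line and direction and for FOXM1, MYBL2 and MKI67. The 5 largest called differences per pair of lines and up to 3 called genes per related list and line are also named. AURKB and BIRC5 in MOLM-13, SPC24, SPC25 and NUF2 where they were not called, and PTTG1, AURKB and SMC4 in U937 were described after their values were seen.

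Alternatives were another adjusted p threshold, pseudocounts of 0.5 and 10, a minimum mean of 50, median-of-ratios scaling, no trend, 1 fit over all libraries, a replicate block, each library left out and a correction for transcript length. No library pair held identical values. Annotation was GENCODE on GRCh37, the build of the files, and promoter windows were from RefSeq. The values of 1 marker gene are not reported here.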

Additional observations from a re-analysis of the deposited data

Results flagged for a closer look

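The responses (shRNF5 minus pLKO, log2 scale) of 14 member and line pairs stood out because the test of the difference between lines passed at an adjusted p below 0.1 in limma. MOLM-13 minus U937 gave −1.66 for SPC25, −1.41 for MYBL2, −1.33 for KIF11, −1.12 for NCAPG (adjusted p = 0.0351) and −1.10 for SPC24 (adjusted p = 0.0846). U937 minus HL-60 gave 2.12 for MKI67, 1.46 for NUSAP1, −1.33 for PTTG1, 1.10 for NCAPH and 0.98 for KIF11. MOLM-13 minus HL-60 gave −1.22 for SPC25, −1.13 for PTTG1, −1.06 for NDC80 and −0.88 for BIRC5. Leaving out each library in turn, SPC24 was called in 4 of 15 fits, with differences from −1.62 to −0.59, BIRC5 in 8, SPC25 in 12 against U937 and 9 against HL-60, and NCAPG in 12.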

How the results depend on the processing

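Median-of-ratios scaling moved the median of all genes by −0.0045 in MOLM-13, by 0.016 in U937 and by −0.0081 in HL-60. With it and with a pseudocount of 0.5 all 36 named values kept their direction and side of the threshold. In MOLM-13 the 0 members called became 1 with a pseudocount of 10, with a minimum mean of 50 and in 1 fit over all libraries (AURKB each time). Of all genes, these fits called 275 of 13026, 249 of 11612 and 272 of 11072. In U937 the 10 became 2 at an adjusted p below 0.05, 1 without the trend and 20 in 1 fit over all libraries (19 higher and PTTG1 lower). The main fit called 2062 of all 13165 genes, the fit without the trend 475, and 1 fit over all libraries 3994 of 11072. For MOLM-13 minus U937 the 14 became 4 at an adjusted p below 0.05, and for MOLM-13 minus HL-60 the 4 became 2. Counts of all genes at that threshold are not given here. The cause of these shifts was not tested. Without the trend 12 of 36 named values lost their call, 9 of them in U937, and after the correction for transcript length 2 of 36 did, SPC25 and BIRC5 in MOLM-13 minus HL-60. Leaving out 1 library gave 0 to 2 members in MOLM-13, 0 to 18 in U937, 4 to 7 in HL-60, 1 to 27 for MOLM-13 minus U937, 7 to 16 for U937 minus HL-60 and 0 to 7 for MOLM-13 minus HL-60. FOXM1 in MOLM-13 then ranged from −0.21 to 0.12, with 0.015 and 0.12 of the opposite sign to the full fit, and it was 1 of 20 members of that line whose sign changed on leaving out a library. Whether the replicate numbers mark pairs could not be settled, so the main fits used no pairing. As MOLM-13 has 2 shRNF5 libraries, their deviations from the group mean are opposite, and its correlations by title and by file number are not independent. Same-numbered libraries had correlations of −0.173 and −0.53 in MOLM-13 and 0.505, 0.156 and −0.109 in HL-60, and the numbers in the file names of MOLM-13, which differ from the titles, gave 0.53 and 0.281. With a replicate block by title, 3 members were called in MOLM-13 (AURKB, BIRC5 and SPC24, all lower), 7 in HL-60 (the 6 that rose and MKI67, lower, adjusted p = 0.0497) and 4 for MOLM-13 minus U937. Of all genes, that block gave 738 of 13026 called in MOLM-13 and 3580 of 12570 in HL-60. With a replicate block by file number, 23 of 44 were called in MOLM-13, all lower, against 2495 of all 13026 genes. In that fit pLKO replicate 1 has no partner and so does not bear on the fold change. The U937 groups share 1 number, so no block could be fitted there alone. Rounded, normalized values limit the depth estimate, and intervals of counting error are not given.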
